A study of Mus musculus with 12 samples.

Results

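The 43 genes described here are the mitosis and spindle genes of mouse B cells: the kinases, motors, kinetochore proteins and checkpoint proteins with which a cell enters, carries out and leaves cell division. They were found on the array by gene name, and each of the 43 names had at least 1 probe among the 34821 gene names of the array. Where a gene had several probes, the probe with the highest mean over the arrays was used. The samples were B cells purified from the spleen of female Balb/c mice, and 4 groups of 3 arrays were measured, namely IL-10+ HDM, IL-10- HDM, IL-10+ control and IL-10- control. HDM mice had allergic airway disease from house dust mite. B cells of every group had been cultured for 2 days with a CD40 agonist, an activator of the receptor through which T cells help B cells, and LPS was present for the last 5 hours. Cells that secreted the cytokine IL-10 were stained with a secretion assay and separated by flow cytometry from those that did not. No group was left without stimulation, and ages were not given. Whether the 3 samples of a group were separate mice was not given either. The p-values therefore measure a spread that may in part be technical.

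Division is driven by CDK1 bound to cyclin B, which the CDC25 phosphatases switch on. Motor proteins of the kinesin family then build the spindle, kinetochores tie its fibres to the chromosomes, and a checkpoint holds the cell until each chromosome is attached. CDC20 and separase then release the sister chromosomes, and the chromosomal passenger complex and the midzone proteins cut the cell apart. The messages of these genes are made mostly in the G2 and M phases of cycling cells, so in lymphocytes activated to divide they are commonly read as proliferation genes. In bulk RNA of this kind, fewer dividing cells and less message per cell cannot be told apart.

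The members share promoter letters that were not used to choose them. The letters TTTGAA are the cell cycle genes homology region, the element read by the DREAM and B-MYB complexes, and CCAAT is the box bound by NF-Y. Of the 43 members, 35 had a promoter in the RefSeq table of the GRCm38.p6 build, each with 250 bases before and 50 after the start. TTTGAA was found on either strand in 24 of these 35 members (68.6%), against 20.2% of the 27025 genes of the table. CCAAT was found in 26 of them (74.3%), against 41.1% of genes, and 21 held both (60%), against 8.97% of genes. Both strands were searched, and a match of 1 motif may share an end base with a match of the other. A match is a description of the letters and not of a bound site. The 150 bases before the start of Cdk1, Cdc20, Top2a and Mki67 are shown because they let the arrangement be seen in members whose values are given further on. The promoters lie at chr10:69352913-69353062, chr4:118437344-118437493, chr11:99024190-99024339 and chr7:135716380-135716529, each on the minus strand, and are written 5′ to 3′ with both motifs in capitals on either strand.
Cdk1: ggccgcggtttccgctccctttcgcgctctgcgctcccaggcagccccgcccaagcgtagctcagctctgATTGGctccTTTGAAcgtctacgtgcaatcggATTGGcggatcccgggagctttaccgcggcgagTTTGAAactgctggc
Cdc20: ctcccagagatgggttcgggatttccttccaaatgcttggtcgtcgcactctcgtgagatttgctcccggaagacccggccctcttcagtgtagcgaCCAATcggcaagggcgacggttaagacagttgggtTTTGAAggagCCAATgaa
Top2a: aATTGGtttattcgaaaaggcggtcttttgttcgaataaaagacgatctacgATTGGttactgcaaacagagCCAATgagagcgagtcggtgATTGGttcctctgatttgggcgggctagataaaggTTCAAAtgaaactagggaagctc
Mki67: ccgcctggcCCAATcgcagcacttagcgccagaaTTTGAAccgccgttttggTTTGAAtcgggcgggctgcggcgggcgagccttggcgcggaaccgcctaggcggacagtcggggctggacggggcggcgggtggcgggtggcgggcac
The element nearest to the start began 15 bases before it in Cdk1, 18 in Cdc20 and 23 in Top2a. In Mki67 the 2 elements began 116 and 98 bases before the start. In Top2a the element stood on the opposite strand, as TTCAAA.

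The label of the samples was checked against marker genes. The 7 B cell markers, among them Cd79a and Pax5, carried the scanner's mark for a signal well above background on all 3 arrays of each group, except that 1 of the 7 fell short in IL-10- HDM cells. Markers of other blood cells were not all absent. Of the 5 neutrophil markers, 0 were above background on all 3 arrays in IL-10+ HDM cells, 1 in IL-10- HDM, 0 in IL-10+ control and 0 in IL-10- control cells, and 5, 3, 1 and 3 of them, in the same order, were at background on every array of the group. Of the 5 erythroid markers, 2, 1, 1 and 2 were above background on all 3 arrays, with Hbb-b1 at background on every array. More markers of other cells were detected. In the same order, 5, 5, 5 and 4 of the 6 T cell markers were above background on all 3 arrays. So were 4, 2, 3 and 3 of the 5 monocyte and macrophage markers, and 2 of the 4 NK cell markers in each group. The summed level of the 5 monocyte and macrophage markers was 10.01 to 13.1 times the array's 75th percentile in IL-10+ HDM cells, 6.84 to 9.05 in IL-10- HDM cells, 6.86 to 11.3 in IL-10+ control cells and 8.32 to 17.2 in IL-10- control cells. That of the 5 plasmablast markers was 86.7 to 104 in IL-10+ HDM cells, 131 to 305 in IL-10- HDM cells, 81.2 to 196 in IL-10+ control cells and 76.3 to 109 in IL-10- control cells. The neutrophil sum was 0.0704 to 0.172 in IL-10+ HDM cells, 0.109 to 0.248 in IL-10- HDM cells, 0.298 to 0.444 in IL-10+ control cells and 0.136 to 0.223 in IL-10- control cells, so that IL-10+ control cells lay above IL-10+ HDM and above IL-10- control cells. The B cell sum was 69.7 to 84.9, 66.4 to 81.4, 81.4 to 82.2 and 59.1 to 69.0 in the same order, without overlap between IL-10+ and IL-10- control cells. The plasmablast sum of IL-10- HDM cells lay above those of IL-10+ HDM and of IL-10- control cells. The monocyte and macrophage sum of IL-10+ HDM cells lay above that of IL-10- HDM cells. The T cell, NK cell and erythroid sums overlapped between the groups compared. The part of these sums in the results was not tested. The arrays lay on 2 slides: slide 1 held the 6 IL-10+ arrays and IL-10- control 1 and 2, while slide 2 held IL-10- control 3 and the 3 IL-10- HDM arrays. Slide and group therefore cannot be told apart in the comparison of IL-10+ with IL-10- cells of HDM mice. That comparison is part of the average over both kinds of mice and of the difference of the 2 IL-10 contrasts. The slides thus enter every averaged difference given below. With slide as a block, 0 genes were called in the average, against 67 without it. IL-10- HDM 3 stood apart, with 73% of the tested genes well above background and a mean correlation of 0.77 with the other arrays. IL-10+ control 2 was next lowest with 78.6%, close to IL-10- control 2 with 80.8%, and its mean correlation was 0.87.

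Many of the mitosis genes were measured only in part. Of the 43 members, 12 were well above background on all 12 arrays (27.9%, against 57.0% of the 24963 genes tested): Ccnb1, Cdc25b, Plk1, Hmmr, Nusap1, Ndc80, Mad2l1, Cdc20, Ube2c, Kif20a, Racgap1 and Top2a. Another 26 were above background on 3 to 11 arrays. Nek2, Kif2c, Bub1 and Bub1b were above it on 1 or 2 arrays, and Aurkb on none. A gene was tested when its probe was above background on at least 3 arrays, so 38 members were tested and 5 were not. The number of members above background was 31, 31 and 29 on the IL-10+ HDM arrays, and 28, 24 and 20 on the IL-10- HDM arrays. It was 24, 26 and 30 on the IL-10+ control arrays, and 29, 28 and 28 on the IL-10- control arrays. The lowest count belonged to IL-10- HDM 3, the array with the fewest spots above background of any kind.

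**Figure D1:**
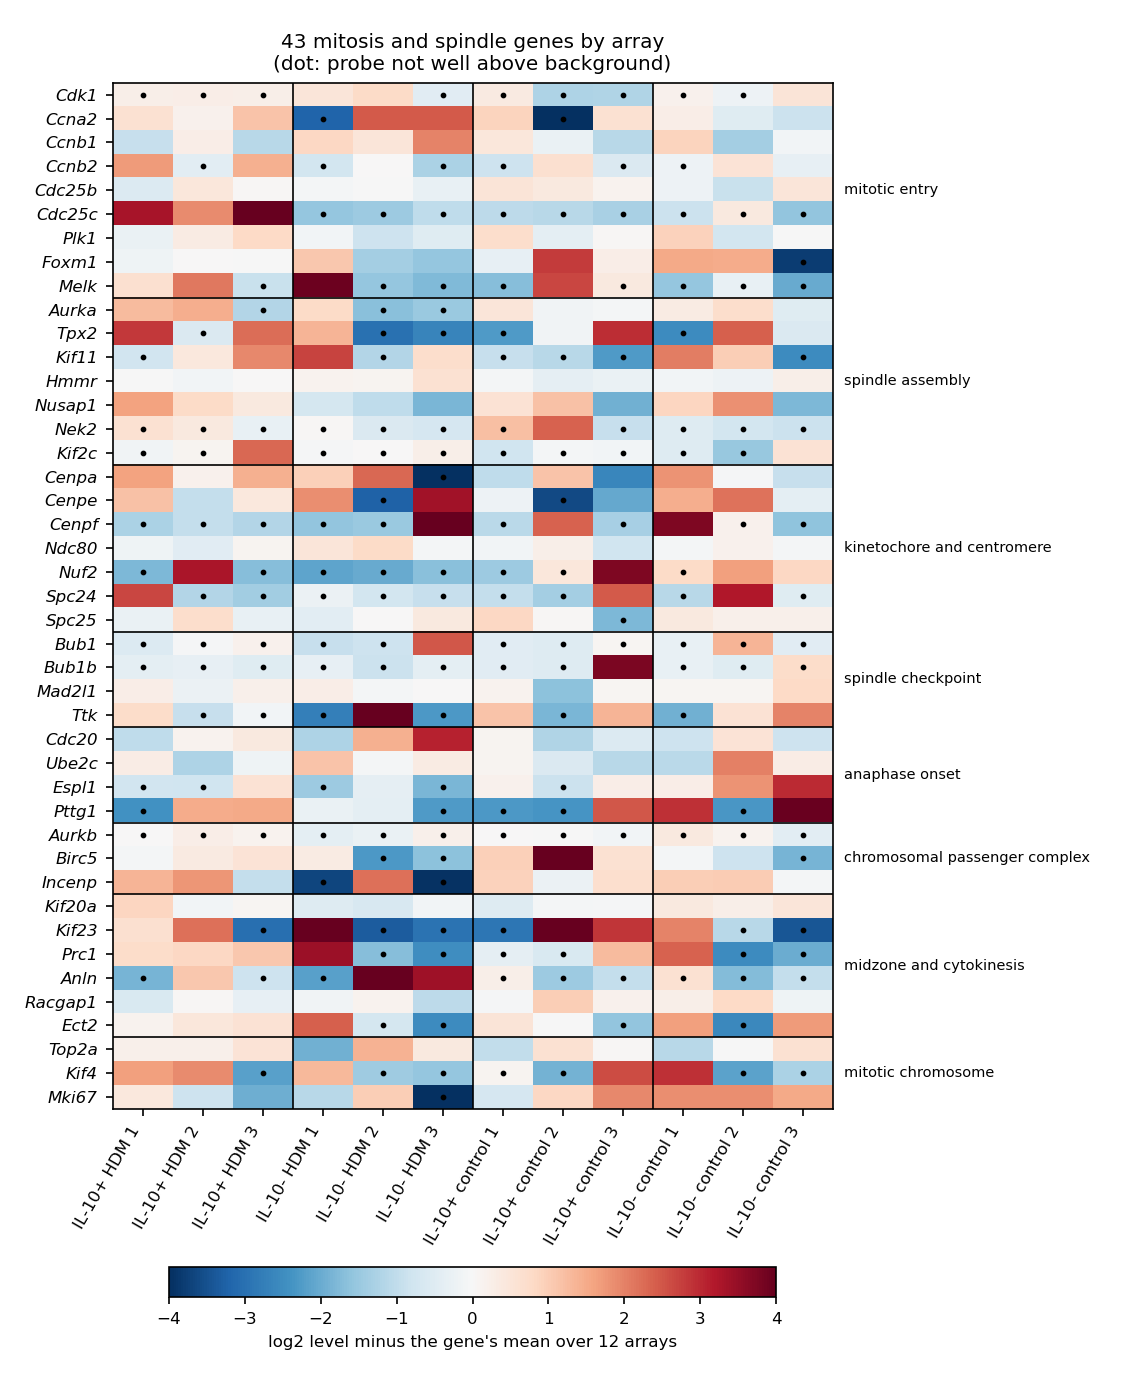
Each row is 1 of the 43 members, grouped by role, and each column 1 array. Colour is the log2 level minus that gene's own mean over the 12 arrays, and a dot marks a probe that was not well above background. The 3 IL-10+ HDM arrays of Cdc25c stand out, while many rows with dots change from array to array within a group.

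Replicate arrays of 1 group disagreed by several fold for most members that were not seen on every array. Levels are log2 values of the processed signal on which 0 is the 75th percentile of the array and 1 unit is a doubling. The within-group SD of the 12 members seen on all arrays ran from 0.19 to 1.32, with a median of 0.58, against a median of 0.56 for all tested genes seen on all arrays. Over the 26 members seen on 3 to 11 arrays it ran from 0.59 to 3.52, with a median of 1.96, against 1.38 for tested genes seen on as few, and 19 of the 26 exceeded 1.5. Kif23, the central spindle motor that shapes the midbody, showed the pattern: it was at -2.51, -0.97 and -6.18 on the IL-10+ HDM arrays and at 1.48, -6.48 and -6.13 on the IL-10- HDM arrays. It was at -6.06, 1.24 and -0.29 on the IL-10+ control arrays and at -1.17, -4.29 and -6.60 on the IL-10- control arrays. High and low arrays occurred together in each group.

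**Figure D2:**
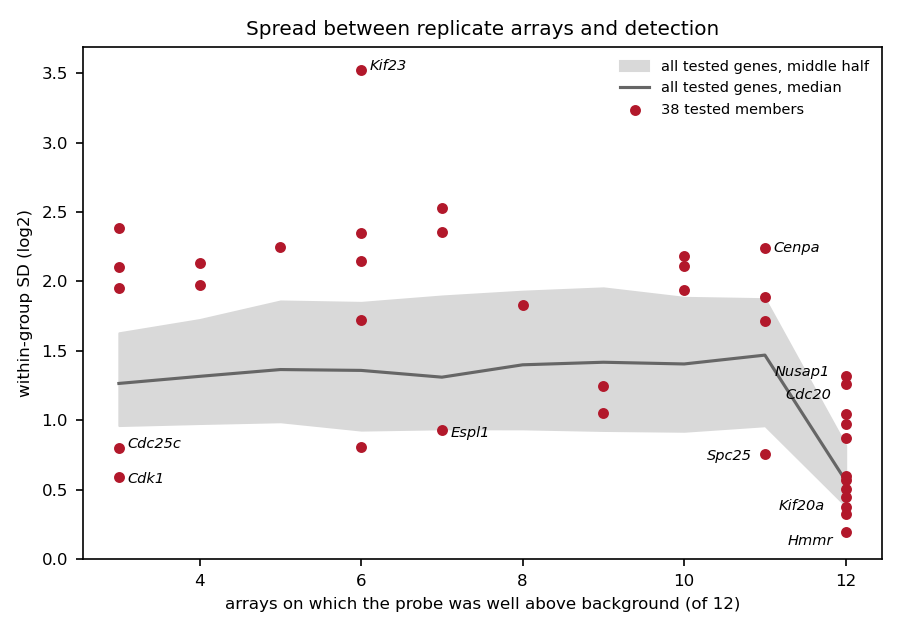
Within-group SD of the log2 level (vertical axis) against the number of arrays on which the probe was well above background (horizontal axis), for the 38 tested members (points) and all tested genes (grey band and line). Members on all 12 arrays lie between 0.19 and 1.32, while Kif23 reaches 3.52.

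No shared rise and fall of the members between replicate arrays was seen in these measurements. The correlation of their deviations from the group means averaged -0.014 over the 903 pairs of members, against 0.009 over pairs of all tested genes. Over the 12 members seen on every array it averaged -0.050 over 66 pairs, against 0.022. These are correlations across 12 arrays of genes that share the same libraries, and are given as a description. The 903 pairs include the 5 members that were not tested. Other probes of a member, where above background on 3 or more arrays, correlated with its used probe at -0.27 to 0.81 (median 0.49). At that agreement, a mean near 0 cannot show that the messages themselves varied apart.

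In the comparison of IL-10+ with IL-10- cells, 1 of the 43 members passed the test. Cdc25c, the phosphatase that activates CDK1 at the start of mitosis, was called higher in IL-10+ than in IL-10- cells of HDM mice. The test was limma with Benjamini-Hochberg adjustment over all 24963 genes, of which 0.168% were called. The Cdc25c probe was well above background on the 3 IL-10+ HDM arrays alone. It thus entered the test only through the group where it was then called higher. Slide and group cannot be told apart in this comparison. With 42 genes called in all, a call in 1 of 38 tested members is a single gene. No member was called in control mice, where 0.016% of genes were, and none in the average over both kinds of mice, where 0.268% were. At an unadjusted p under 0.05 there were 3 members in HDM mice, 2 in control mice and 2 in the average, against 13.3%, 4.06% and 9.17% of all tested genes.

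Cdc25c was at -1.75, -3.16 and -0.77 on the IL-10+ HDM arrays, against -6.59, -6.52 and -6.06 on the IL-10- HDM arrays. On the control arrays it was at -6.09, -6.16 and -6.36 in IL-10+ cells and at -5.90, -4.66 and -6.64 in IL-10- cells. The 3 IL-10+ HDM arrays were thus above all 9 others, and on those 9 the probe was not well above background. Its mean was -1.89 ± 1.20 in IL-10+ HDM cells and -6.39 ± 0.29 in IL-10- HDM cells (SD, n = 3 each), a measured log2 difference of 4.50 (SE 0.63, limma adjusted p = 0.0268). As the lower group gives a bound only, Cdc25c was at least 5.03-fold higher in IL-10+ HDM cells, taking for each IL-10- HDM array the lowest signal that counted as well above background. Cdc25c entered the test only through the IL-10+ HDM arrays, which made it a gene that had to be higher there. Detection on exactly those 3 arrays occurred in 7 of the 24963 tested genes (0.028%), and detection on exactly the 3 arrays of another group in 10 genes for IL-10- HDM, 6 for IL-10+ control and 4 for IL-10- control.

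The IL-10+ HDM and IL-10+ control arrays were on the same slide. There Cdc25c was at least 4.44-fold higher in IL-10+ HDM cells, with a log2 difference of 4.31 (SE 0.63) over the means of -1.89 in IL-10+ HDM cells and -6.20 in IL-10+ control cells, which did not pass the limma test (adjusted p = 0.17, 0 members called, against 0.00401% of genes). The difference between the IL-10 contrast of HDM mice and that of control mice was 4.97 (SE 0.89), with a limma adjusted p of 0.33. No member was called for this difference, where 0.012% of genes were, and 3 members had an unadjusted p under 0.05, against 6.46% of genes. The call in HDM mice was lost with slide as a block (3.13, SE 1.07, limma adjusted p = 0.53), where IL-10- control 3 alone links the slides. With normexp background correction and quantile normalisation it was lost too (0.99, SE 0.29, limma adjusted p = 0.21). That correction adds an offset of 50 to each signal, which draws log2 differences of dim probes toward 0. The call was lost without IL-10- HDM 3 (limma adjusted p = 0.0951). The same held when IL-10+ HDM 1, IL-10+ HDM 3 or IL-10+ control 3 was left out (0.101, 0.092 and 0.0556). The summed monocyte and macrophage markers were also higher on the IL-10+ HDM than on the IL-10- HDM arrays, and the summed plasmablast markers lower. The sum hides markers that went the other way. Of the 5 plasmablast markers 2 were higher and 3 lower in IL-10+ HDM cells, with log2 differences from -0.96 to 7.23. By the same test 1 of them was called higher. Jchain, 1 of the 5, was at background on every IL-10- HDM array. The part of these markers in this result was not tested.

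**Figure D3:**
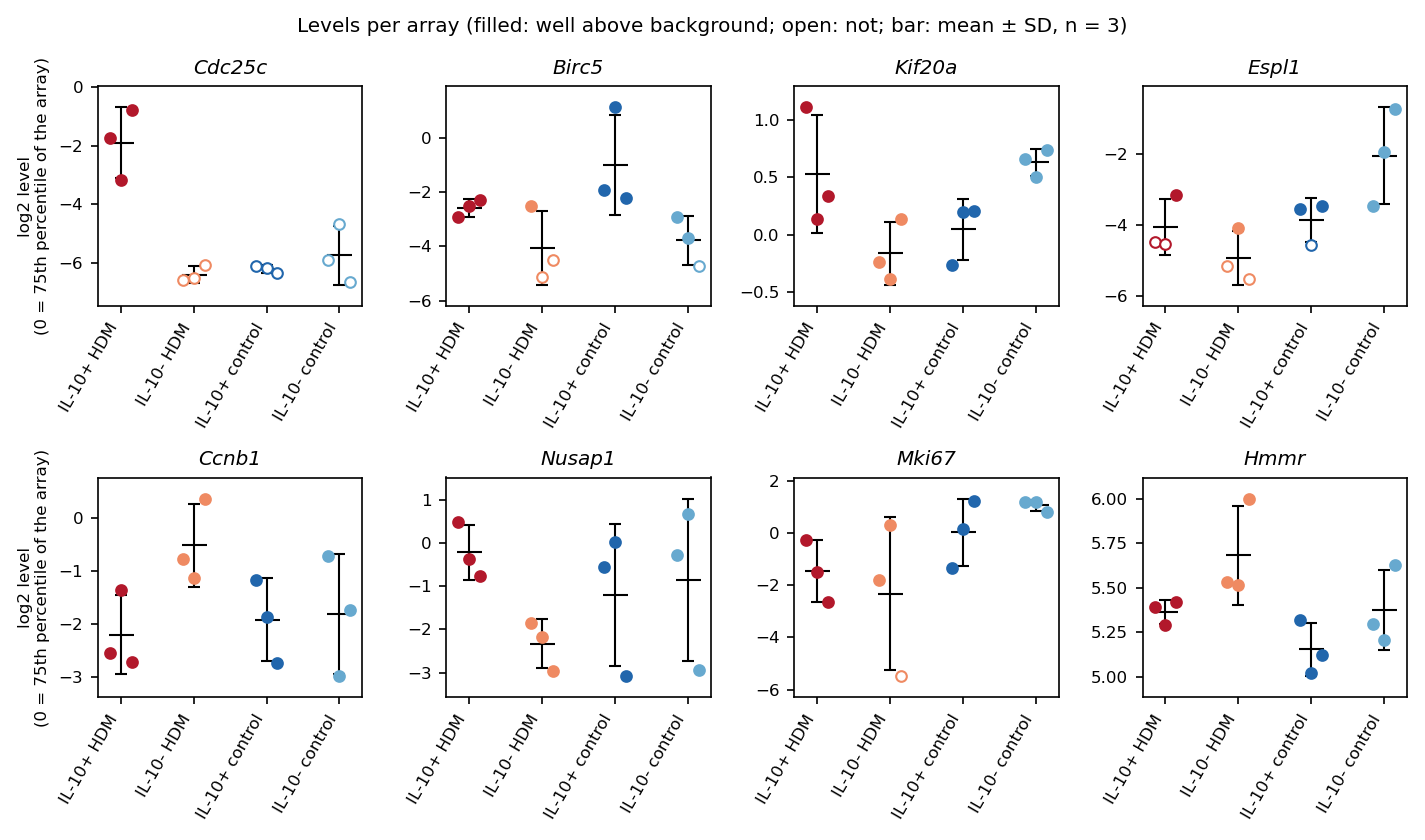
Log2 level per array (vertical axis, 0 is the array's 75th percentile) for 8 members in the 4 groups, with the mean and SD of 3 arrays. Filled points are well above background and open points are not. Cdc25c lies between -3.16 and -0.77 on the IL-10+ HDM arrays and at -4.66 or below on the other arrays.

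The cyclin partners of CDK1 did not pass the test. Ccnb1, the cyclin that activates CDK1 for mitosis, was at -2.54, -1.34 and -2.71 on the IL-10+ HDM arrays, against -0.77, -1.13 and 0.37 on the IL-10- HDM arrays. The IL-10+ HDM arrays were all below the IL-10- HDM arrays, but the log2 difference of -1.69 (SE 0.68) did not pass the limma test (adjusted p = 0.34). In control mice Ccnb1 was at -1.16, -1.86 and -2.72 in IL-10+ cells and at -0.71, -2.98 and -1.72 in IL-10- cells, and these overlapped. Of the 2 other Ccnb1 probes, 1 was above background on 7 arrays and gave -1.52 in HDM mice, and the other, on 4 arrays, gave -0.31. Ccnb2, the second mitotic B cyclin, differed by 1.55 in HDM mice (SE 0.63, limma adjusted p = 0.34), opposite in sign to Ccnb1. Its probe was above background on 6 arrays, of which 2 were IL-10+ HDM and 1 was IL-10- HDM. It was at -1.98, -4.11 and -2.27 on the IL-10+ HDM arrays, against -4.43, -3.66 and -4.95 on the IL-10- HDM arrays, which overlapped.

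The other genes of mitotic entry gave no call. Cdk1, the kinase itself, was well above background on 2 IL-10- HDM arrays and 1 IL-10- control array, and on none of the 6 IL-10+ arrays. Its levels were -3.90, -3.85 and -3.89 on the IL-10+ HDM arrays, against -3.64, -3.36 and -4.59 on the IL-10- HDM arrays, which overlapped, and no fold is given. Its other 2 probes were above background on no array. Plk1, the polo kinase needed for spindle assembly and exit from mitosis, was seen on all 12 arrays and averaged -1.53 ± 0.54 in IL-10+ HDM cells and -2.28 ± 0.36 in IL-10- HDM cells, and -1.70 ± 0.54 in IL-10+ control and -1.75 ± 0.84 in IL-10- control cells (SD, n = 3 each). The averaged difference of IL-10+ minus IL-10- cells for Plk1 was 0.40, with a 95% interval of -0.38 to 1.18, and it ran from 0.20 without IL-10- control 2 to 0.62 without IL-10- control 1. Foxm1, the transcription factor that switches on many G2 and M genes, differed by 0.86 with an interval of -1.33 to 3.05, and its level on IL-10- control 3 was -5.22 against 0.07 and 0.06 on the other 2 arrays of that group. Without IL-10- control 3 the difference was -0.02.

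Among spindle assembly genes, the bundling protein Nusap1 was at 0.47, -0.38 and -0.76 on the IL-10+ HDM arrays, against -1.86, -2.16 and -2.97 on the IL-10- HDM arrays. These did not overlap, and the log2 difference was 2.11 (SE 0.99, limma adjusted p = 0.39). With slide as a block it was -1.02. In control mice it was at -0.56, 0.03 and -3.08 in IL-10+ cells, against -0.29, 0.67 and -2.94 in IL-10- cells, so that replicate 3 was low in both. Hmmr, a spindle protein that works with TPX2 and AURKA, had the smallest within-group SD of the 43 members, 0.19. It was at 5.39, 5.29 and 5.42 on the IL-10+ HDM arrays, against 5.53, 5.51 and 5.999 on the IL-10- HDM arrays. The 2 groups did not overlap, yet the log2 difference was -0.31 (SE 0.28, limma adjusted p = 0.63). It was -0.16 without IL-10- HDM 3 and 0.09 with quantile normalisation. Over the 4 tested members whose arrays did not overlap in HDM mice, Cdc25c and Nusap1 were higher in IL-10+ cells and Ccnb1 and Hmmr lower, which is 2 of 38 each way against 11.4% and 11.2% of tested genes.

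Of the kinetochore genes, 7 of 7 were tested and none was called in a comparison. Their differences of IL-10+ minus IL-10- cells were above 0 in 4 of 7 in HDM mice, with a median of 0.05, beside 0.16 over all tested genes. They were below 0 in 7 of 7 in control mice, with a median of -0.57, beside -0.04. Cenpf, Spc24 and Nuf2 were above background on 3, 3 and 4 arrays, so some of these signs rest on values at background. Ndc80, which holds the spindle fibre at the kinetochore, was seen on all arrays, at 2.22, 1.93 and 2.49 in IL-10+ HDM cells and 2.88, 3.15 and 2.30 in IL-10- HDM cells. The spindle checkpoint was measured mainly through Mad2l1, since Bub1 and Bub1b were above background on 1 array each. Mad2l1, which holds CDC20 inactive until chromosomes are attached, averaged 3.39 ± 0.27 in IL-10+ HDM cells and 3.38 ± 0.19 in IL-10- HDM cells (SD, n = 3 each). Its other 2 probes, on 12 and 11 arrays, correlated with it at -0.27 and -0.21 over the 12 arrays, so the probes of Mad2l1 disagree.

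Cdc20, the activator of the anaphase-promoting complex whose promoter is shown above, was at -3.02, -1.85 and -1.63 on the IL-10+ HDM arrays, against -3.24, -0.59 and 1.08 on the IL-10- HDM arrays. The values overlapped, and its averaged IL-10 difference was -0.71 with a 95% interval of -2.20 to 0.78. Without IL-10- HDM 3 it was -0.21, and without IL-10- HDM 1 it was -1.29. The 4 genes of anaphase onset were all below 0 in IL-10+ minus IL-10- cells of control mice, with a median of -1.36. The median over all tested genes was -0.04, and none of these 4 genes was called. One of them, Espl1, is separase, the protease that cuts the cohesin ring, and was at -3.54, -4.56 and -3.45 on the IL-10+ control arrays, against -3.46, -1.92 and -0.73 on the IL-10- control arrays. The log2 difference was -1.81 (SE 0.72), with a limma adjusted p of 1. Ube2c, which supplies ubiquitin to the same complex, was seen on all arrays and averaged -1.76 ± 0.78 in IL-10+ HDM and -0.93 ± 0.62 in IL-10- HDM cells (SD, n = 3 each).

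For survivin, the answer depended on the probe. Birc5 encodes survivin, the passenger complex subunit that also restrains cell death. Its 3 probes lie on chromosome 11, and their first 30 bases are shown because they give different pictures of the same gene, with positions of the whole 60 bases on mm9 and no letters capitalised. Their exons were not looked up, as no annotation of mm9 was used here.
A_55_P1983768 at chr11:117711112-117711171: tgatttggcccagtgttttttctgctttaa
A_55_P1983769 at chr11:117714057-117714116: tcttgaaactggacagacagagagccaaga
A_55_P1983773 at chr11:117716978-117717037: tgctgataattttgtcctgatgagttttcc
The first of them was the probe used. It was at -2.93, -2.49 and -2.30 on the IL-10+ HDM arrays, against -2.53, -5.15 and -4.49 on the IL-10- HDM arrays, and at -1.90, 1.14 and -2.23 on the IL-10+ control arrays, against -2.92, -3.69 and -4.72 on the IL-10- control arrays. In control mice the groups did not overlap, with a log2 difference of 2.78 (SE 0.94, limma adjusted p = 0.98), and the average over both kinds of mice was 2.13 (SE 0.66, limma adjusted p = 0.33). Without IL-10+ control 2, the highest of the 12 arrays, the difference in control mice was 1.71. The second probe was above background on all 12 arrays but was set aside because of an outlier flag on IL-10+ HDM 1. It gave -0.20 in control mice and 0.14 on average. The third, above background on 6 arrays, gave -0.65 and -0.47. Over the 12 arrays the probe used correlated with the other 2 at -0.19 and 0.09.

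**Figure D4:**
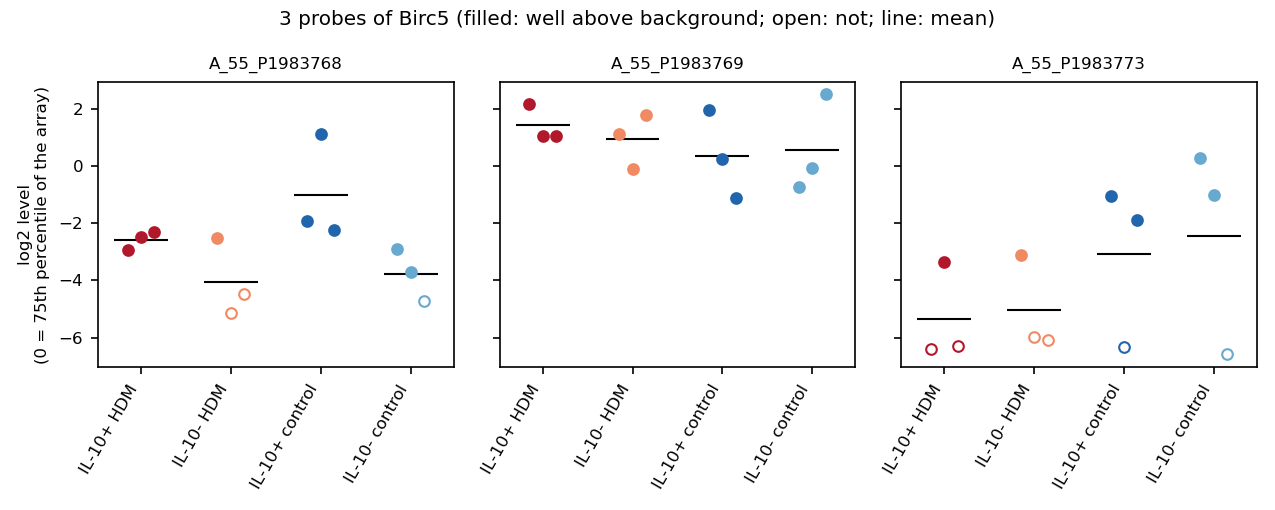
Log2 level per array (vertical axis) of the 3 Birc5 probes in the 4 groups, with the mean as a line, filled points well above background and open points not. The left probe is higher in IL-10+ than in IL-10- control cells by 2.78, while the middle and right probes give -0.20 and -0.65.

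Aurkb, the kinase of the passenger complex, was above background on no array of any group, with levels between -6.33 and -5.50, and no fold is given. Kif20a, the midzone motor that brings the passenger complex to the site of cleavage, was seen on all 12 arrays with a within-group SD of 0.33. It was at 1.11, 0.14 and 0.33 on the IL-10+ HDM arrays, against -0.24, -0.39 and 0.14 on the IL-10- HDM arrays, a log2 difference of 0.69 (SE 0.34, limma adjusted p = 0.40). In control mice it was at -0.26, 0.20 and 0.21 in IL-10+ cells, against 0.66, 0.50 and 0.74 in IL-10- cells, a difference of -0.59 (SE 0.34, limma adjusted p = 1). The difference of these 2 contrasts was 1.28 (SE 0.48), which did not pass the limma test (adjusted p = 0.76). Birc5 and Kif20a were the 2 members whose arrays did not overlap in control mice, 1 of 38 in each direction, against 4.75% of tested genes higher and 4.70% lower.

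Top2a, the topoisomerase that untangles chromosomes, and Mki67, the source of the Ki-67 proliferation antigen, are the usual message markers of cycling cells. Top2a was at 0.12, 0.10 and 0.46 on the IL-10+ HDM arrays, against -2.02, 1.30 and 0.31 on the IL-10- HDM arrays, and at -1.08, 0.52 and -0.03 on the IL-10+ control arrays, against -1.19, -0.11 and 0.53 on the IL-10- control arrays. The groups overlapped, and its averaged IL-10 difference was 0.21 with a 95% interval of -1.04 to 1.46. For Mki67 the averaged difference was -0.09 with an interval of -2.08 to 1.91. Without IL-10- HDM 3 it was -0.88, and without IL-10- HDM 2 it was 0.57. Neither interval excludes a doubling in either direction, so at this spread the IL-10+ and IL-10- cells are not shown to be alike or to differ in these markers. Over the 38 tested members, the distance from the averaged difference to either end of its 95% interval had a median of 1.77 log2 units, from 0.44 for Hmmr to 4.04 for Kif23.

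House dust mite allergy was compared within IL-10- cells and within IL-10+ cells. In IL-10- cells no member passed the limma test, where 0.0481% of genes did, and 3 members had an unadjusted p under 0.05, against 9.13% of genes. Mki67 was at -1.78, 0.31 and -5.49 on the IL-10- HDM arrays, against 1.20, 1.19 and 0.84 on the IL-10- control arrays. The HDM arrays were all lower, with a log2 difference of -3.40 (SE 1.27, limma adjusted p = 0.50), of which the array that stands apart held the lowest value. Without IL-10- HDM 3 it was -1.81. The second Mki67 probe gave -1.32 in the same comparison. In IL-10+ cells Mki67 was at -0.24, -1.48 and -2.62 in HDM mice, against -1.32, 0.16 and 1.26 in control mice, which overlapped.

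Espl1 was at -5.16, -4.07 and -5.52 on the IL-10- HDM arrays, against -3.46, -1.92 and -0.73 on the IL-10- control arrays. The log2 difference was -2.88 (SE 0.72, limma adjusted p = 0.29). Its probe was well above background on 1 of these IL-10- HDM arrays and on 3 of these IL-10- control arrays, so the difference rests in part on values at background. Kif20a differed by -0.80 (SE 0.34, limma adjusted p = 0.53), with the IL-10- HDM values below all 3 IL-10- control values. Together with Nuf2, a partner of Ndc80, these were 4 members whose IL-10- HDM arrays lay below the IL-10- control arrays, 4 of 38 against 6.16% of tested genes, and none lay above, against 5.72%. Nuf2 was at background on the 3 IL-10- HDM arrays. Its used probe gave a measured difference of -3.01, and its other 2 probes, above background on 2 and 0 arrays, gave 0.45 and -0.07. Of the 6 arrays in this comparison, 2 controls were on slide 1 and the other 4 arrays on slide 2. Within slide 2, where 3 HDM arrays face 1 control array, the median over the 43 members was 0.05. The summed plasmablast markers were 131 to 305 in IL-10- HDM cells, against 76.3 to 109 in IL-10- control cells. Of the 5 markers, 2 were higher and 3 lower in IL-10- HDM cells. Their part in these differences was not tested.

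In IL-10+ cells, where all 6 arrays were on slide 1, no member passed the limma test, and 1 had an unadjusted p under 0.05, against 2.28% of genes. Cdc25c and Kif11, the motor that pushes the spindle poles apart, were higher on all 3 HDM arrays and Birc5 by the probe used was lower, 2 and 1 of 38 against 5.86% and 3.75% of tested genes. Kif11 was at -4.85, -3.65 and -2.17 on the IL-10+ HDM arrays, against -4.99, -5.18 and -6.35 on the IL-10+ control arrays. Its probe was well above background on 2 of these HDM arrays and on 0 of these control arrays, so its separation rests on values at background. Birc5 fell short of the test, with a log2 difference of -1.58 (SE 0.94, limma adjusted p = 1), and its second probe gave 1.06. Without IL-10+ control 2 the probe used gave -0.51.

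**Figure D5:**
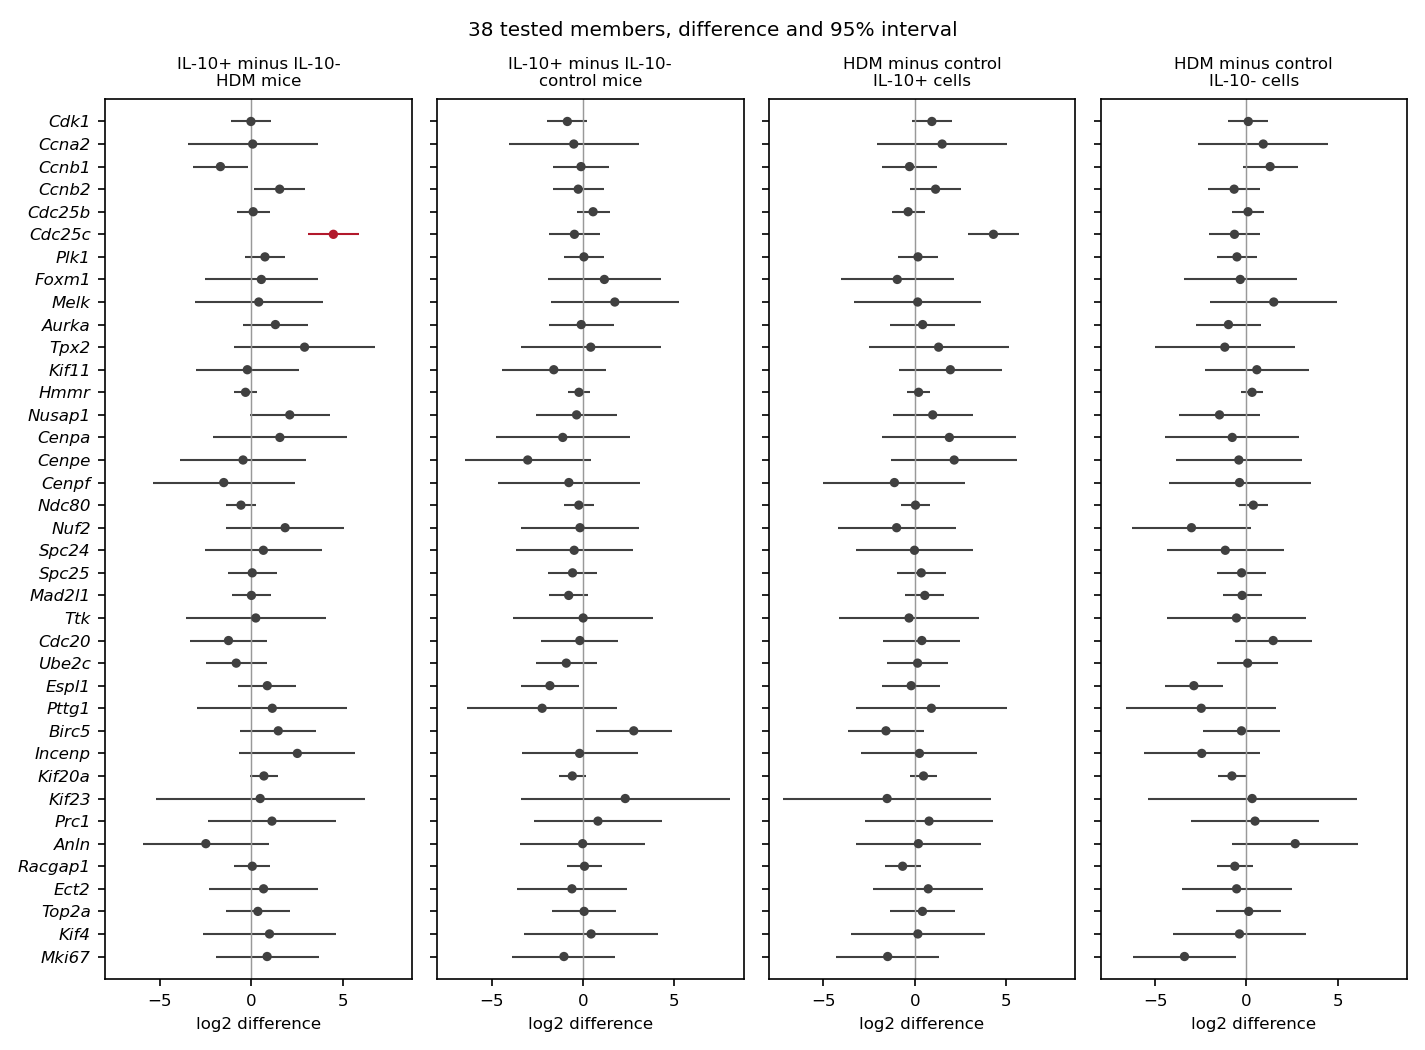
Log2 difference (point) and 95% interval (line) of the 38 tested members in 4 comparisons, in the order of their roles. Cdc25c, in red, is the member called in HDM mice, and genes not well above background in a group are drawn at their measured means. Most intervals cross 0, and the distance from point to end of line has a median of 2.51.

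The whole list was described by its median. In HDM mice the median of the 43 log2 differences of IL-10+ minus IL-10- cells was 0.49, with 32 of 43 above 0, beside a median of 0.16 over all tested genes. Over the 12 members seen on every array it was 0.03, beside -0.07 for genes seen on every array. The sign depended on the scaling, since the median was -0.31 beside -0.64 for all genes with each array scaled to its median, and 0.09 beside -0.02 with quantile normalisation. With normexp background correction and quantile normalisation the median was -0.004 beside -0.03, with 20 of 43 above 0. The offset of 50 in that correction draws differences of dim probes toward 0. With slide as a block the median was 0.06, with 22 of 43 above 0, and lay below the 0.27 of all genes. In control mice the median was -0.19 with 15 of 43 above 0, beside -0.04, and averaged over both kinds of mice it was 0.11 beside 0.04. With 1 array left out the median ran from 0.31 to 0.76 in HDM mice, from -0.41 to -0.08 in control mice and from 0.06 to 0.31 for the average. For HDM minus control mice it was 0.20 in IL-10+ cells, beside 0.07, and -0.34 in IL-10- cells, beside -0.04. In IL-10+ cells it was 0.09 without IL-10+ control 2, 0.31 without IL-10+ HDM 3 and -0.09 with median scaling, beside -0.21 for all genes. In IL-10- cells it was -0.10 without IL-10- HDM 3, -0.09 without IL-10- control 1 and -0.60 without IL-10- HDM 1. With median scaling it was 0.31 in IL-10- cells, beside 0.60 for all genes. The averaged median was -0.22 with median scaling, beside -0.29. Median scaling moves all genes of a comparison by the same amount, so it leaves the members' place among all genes unchanged. By the letters of the promoter, the 24 members with TTTGAA had a median of 0.30 in HDM mice and the 11 without it 0.41, and averaged over both kinds of mice these were 0.05 and 0.33.

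Other genes of the same machinery, taken from lists of 95 further mitosis genes, gave no call either, although 83 of the 95 were tested. At an unadjusted p under 0.05 there were 13 in IL-10+ against IL-10- cells of HDM mice, 7 higher and 6 lower, beside 13.3% of all tested genes, and 3 in control mice, beside 4.06%. Cenph, a protein of the inner kinetochore, had the smallest p among them in HDM mice. It was at 0.38, -0.16 and -0.55 on the IL-10+ HDM arrays, against -6.62, -6.55 and -6.17 on the IL-10- HDM arrays, where its probe was not well above background, which makes it at least 17.3-fold higher in IL-10+ HDM cells (limma adjusted p = 0.056). On the control arrays Cenph was at -3.14, 0.83 and -2.44 in IL-10+ cells and -0.12, -1.81 and -3.70 in IL-10- cells, which overlapped. Spag5, a spindle protein also known as astrin, was at background on the 3 IL-10- HDM arrays as well, and was at least 7.38-fold higher in IL-10+ HDM cells (limma adjusted p = 0.14). In the other direction Cdca8, the borealin subunit of the passenger complex, was above background on all 12 arrays, at 2.33, 2.73 and 2.00 on the IL-10+ HDM arrays, against 3.48, 3.27 and 3.47 on the IL-10- HDM arrays. Its log2 difference was -1.05 (SE 0.33, limma adjusted p = 0.26). Ska3, a kinetochore protein, was at background on the 3 IL-10- HDM arrays and at least 8.27-fold lower there than in IL-10- control cells (limma adjusted p = 0.15).

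The genes that decide whether a cell starts the cycle did not pass the test in these comparisons either. Of 17 G1 cyclins, CDKs and E2F factors 16 were tested, and of 18 brakes of the cycle 16. At an unadjusted p under 0.05, 1 brake was higher and 2 were lower in the average of IL-10+ minus IL-10- cells, and 1 gene of the first list was lower, beside 9.17% of all tested genes. Cdkn2b, an inhibitor of the G1 kinases CDK4 and CDK6, was at 1.11, 2.07 and 1.26 on the IL-10+ HDM arrays, against 1.16, -2.75 and -2.60 on the IL-10- HDM arrays, and at 0.53, 1.87 and 1.14 on the IL-10+ control arrays, against -0.07, -1.83 and -1.26 on the IL-10- control arrays. Its averaged difference was 2.55 (SE 0.67, limma adjusted p = 0.22). Klf2, a factor that keeps T cells at rest, was at -0.90, -0.42 and -1.18 on the IL-10+ HDM arrays, against 0.13, 0.89 and 1.07 on the IL-10- HDM arrays, and at -2.99, -5.998 and -0.08 on the IL-10+ control arrays, against 0.64, 1.47 and -0.23 on the IL-10- control arrays. Its averaged difference was -2.59 (SE 0.82, limma adjusted p = 0.34), and its lowest value was on IL-10+ control 2. Myc, a driver of growth in activated B cells, averaged -0.69 (SE 0.25, limma adjusted p = 0.43) in the same direction of subtraction. These averages take in the HDM comparison, where slide and group cannot be told apart.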

How the data were processed

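Per the labels' protocols, mRNA-derived cDNA was amplified by PCR and labelled with Cy3. Spots of the arrays (design 028005, mm9 positions) were quantified in Feature Extraction 10.7.3.1 from Agilent, per the file headers. The deposited intensity values are the processed signal, background-subtracted and not normalised between arrays, with mean and background intensity used in 1 alternative. The deposited flags for outliers and background are other values, not intensities. A deposited series table is a ratio: the processed signal over the array's median (largest deviation 0.00077%), and was not used further.

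Spots with outlier flags were dropped, spots of a probe averaged, and log2 signal taken minus the array's 75th percentile. Genes needed a probe well above background on 3 of the 12 arrays, which 37727 probes were. Groups were compared with limma 3.58.1 in R 4.3.3 (lmFit, eBayes, 4 group means, 8 residual degrees of freedom), adjusted by Benjamini-Hochberg over 24963 genes and called under 0.05, in 6 comparisons. The fit was also run on simulated arrays with normal noise and known changes. These held no background floor and no slide effect, so the run does not bear on dim probes or slides. The number of arrays limits the precision. Named are members called, those with the largest difference among non-overlapping groups that were above background throughout the higher group, and Cdk1, Ccnb1, Plk1, Foxm1, Aurkb, Cdc20, Top2a and Mki67; others illustrate a property of the measurement and were chosen after their values were seen. Members, gene lists and tests were chosen with earlier results of these data known. Alternatives were other normalisations, scalings, filters, probe rules, blocks and omitted arrays.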

Additional observations from a re-analysis of the deposited data

How the results depend on the processing

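No member was called under any alternative in the 5 comparisons other than IL-10+ against IL-10- cells of HDM mice. There the count of 1, Cdc25c, became 0 with quantile normalisation, normexp with quantile normalisation, median scaling, slide as a block, the replicate block, and trend and robust eBayes. It also became 0 without IL-10- HDM 3 and IL-10+ control 2 together, the 2 arrays with the fewest spots above background (chosen after seeing the data). The same held with probes required on all 12 arrays, where Cdc25c is not tested. Its log2 difference under these was 4.01, 0.99, 3.70, 3.13, 4.50, 4.50 and 4.67 (adjusted p = 0.0959, 0.21, 0.18, 0.53, 0.0876, 0.0583 and 0.0869). The 0.99 came with the normexp offset of 50, which draws differences of dim probes toward 0. Leaving out each array in turn gave counts of 0 to 1 and differences of 3.94 to 5.13 (adjusted p 0.023 to 0.101). It stayed called with no filter, with the mean of a gene's probes and with outlier-flagged spots kept. The median over the members moved beyond the spread between arrays (SD 0.70) with median scaling, to -0.31 in HDM mice and -0.38 for the difference of the 2 IL-10 contrasts, while the medians of all genes moved to -0.64 and -0.78. Signs turned for Birc5 with outlier-flagged spots kept, which bring in its second probe (-0.20 in control mice, and 1.06 for HDM minus control in IL-10+ cells), for Nusap1 (-1.02) and Foxm1 (-2.66) with slide as a block, for Hmmr with quantile normalisation (0.094), normexp (0.091) and slide as a block (0.062), for Foxm1 without IL-10- control 3 (-0.021, range over single omissions -0.021 to 1.30), and for Top2a with median scaling (-0.12) and without IL-10- control 1 (-0.023) or IL-10- HDM 1 (range over single omissions -0.26 to 0.57), and for the averaged Mki67 difference with the mean of its probes (0.15) and with single omissions (-0.88 to 0.57); none of these was a call, and the cause was not tested. Samples of the same replicate number share only the number: over 18 pairs their deviations correlated at -0.14 to 0.15, and with the replicate block 17 genes were called in HDM mice in place of 42. The count of genes called there ran from 0 with slide as a block to 214 without IL-10- HDM 1, and was 5 without IL-10+ HDM 3. It was 21 without the 2 arrays with the fewest spots above background. Depth is not defined for arrays; 31 of 43 members lacked signal well above background on at least 1 array.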
